A study of Mus musculus with 38 samples.

Results

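The transcriptome of kidneys with Adriamycin nephropathy was compared with that of healthy kidneys in female BALB/c mice that had all received 1 injection of fibroblast growth factor 23 (FGF23) 24 h earlier. The comparison holds 8 of the 38 libraries of the series: 4 from mice given Adriamycin and FGF23, in the columns of mice Ad13, Ad14, Ad15 and Ad16, and 4 from healthy mice given FGF23, in the columns of mice Ad9, Ad10, Ad11 and Ad12. The libraries were chosen by treatment, disease and strain in the labels and not by any measured value. All mice were 10 weeks old at the end of the experiment, and the injected hormone was 1 µg of recombinant human FGF23. Healthy mice received the vehicle of Adriamycin instead. The other 8 libraries of this experiment, healthy and Adriamycin mice injected with the vehicle of FGF23, share no library with the comparison and served as a second set of mice. Each library came from a piece of the pars intermedia of 1 kidney, so it holds all cell types of that piece, and in such bulk samples fewer cells of a type and less RNA per cell cannot be told apart.

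Adriamycin, also called doxorubicin, is an anthracycline that damages DNA. In BALB/c mice it injures podocytes, the cells that hold back protein at the glomerular filter, and protein then leaks into the urine and reaches the tubule. FGF23 is a hormone from bone that acts on the tubule through FGF receptors and the co-receptor Klotho, lowers phosphate reabsorption and shifts vitamin D from synthesis to breakdown. DNA damage is known to raise targets of the transcription factor p53, and drug efflux pumps of the P-glycoprotein family carry doxorubicin out of cells.

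The Adriamycin libraries under FGF23 held 15665050 to 23602823 counted reads and the healthy ones 18568224 to 24955389, with 8.76% to 9.16% and 8.71% to 9.56% of reads on mitochondrial genes. Defining kidney markers were present in all 8 libraries, with Umod of the thick ascending limb at 2977 to 5215 CPM (reads of a gene scaled to a common library total), Slc34a1 of the proximal tubule at 3819 to 5174 CPM and Aqp2 of the collecting duct at 170.8 to 553.2 CPM. The healthy libraries Ad9 and Ad10 stood apart in fat cell RNA. The summed CPM of 9 adipocyte markers, a list made after the values were seen, was 246.5 in Ad9, 307.6 in Ad10, 23.73 in Ad11 and 4.664 in Ad12, against 8.458, 7.037, 6.806 and 23.92 in Ad13 to Ad16. Adipoq, the fat cell hormone adiponectin, was at 38.14 CPM in Ad9 and 34.87 CPM in Ad10 and at 0 in Ad12, Ad13, Ad14 and Ad15. All 9 markers had the lower mean in Adriamycin kidneys and 0 of 9 passed the test below, with a median log2 fold change of -5.05. The markers of the urothelium, the lining of the renal pelvis, summed to 31.07 CPM in Ad10 and to 0.836 to 7.576 CPM in the other 7 libraries.

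Of 16020 genes tested, 74 were higher in Adriamycin kidneys (0.462%) and 38 were lower (0.237%) at an adjusted p below 0.05 (edgeR quasi-likelihood test, Benjamini-Hochberg). The median log2 fold change was 0.61 over the higher genes and -0.78 over the lower genes, and 15 of the higher and 16 of the lower genes changed by more than 1 on the log2 scale. CPM values of the 4 Adriamycin libraries lay wholly above those of the 4 healthy libraries for 490 of the tested genes (3.06%) and wholly below for 475 (2.97%), and this held for 71 of the 74 higher and all 38 of the lower genes. The p-values measure the spread between these 8 mice and the 8 vehicle mice of the same fit. The number of calls rested on single libraries. Without Ad14 it was 19 higher and 2 lower, and without Ad15 33 in all, and of the 112 genes 45 were also called without Ad10, 46 without Ad11, 54 without Ad9 and 59 without Ad16.

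The calls were also read without Ad9 and Ad10 and with the adipocyte markers in the fit. With both libraries left out, 57 genes were higher and 51 lower, of which 43 were among the 112. With the log2 summed CPM of the adipocyte markers as a covariate, 27 genes were higher and 13 lower. An earlier version of this covariate also held Fabp4, and under it 4 genes were higher and 1 was lower. Fabp4 was taken out after that result was seen, because capillary endothelium also expresses it. It was at 49.09, 32.98, 48.64 and 41.98 CPM in the Adriamycin libraries, where the sum of the other markers was low. Plin4, which was kept, was at 7.213, 6.729, 6.473 and 7.394 CPM in Ad13 to Ad16. In Ad11 and Ad12 Plin4 was at 5.987 and 4.522 CPM. It made up most of the low sums of Ad12, Ad13, Ad14 and Ad15. Both versions are given because the choice changes the count. The sum with Fabp4 was 40.02 to 65.9 CPM in Adriamycin and 60.77 to 507 CPM in healthy kidneys, so it went in part with the disease. Under that version calls ended with unlike shifts in log2 fold change. Nfkbia went from 1.040 to 1.041, Kap from -2.497 to -2.378 and Pnpla3 from -3.361 to -1.293. In every refit at an adjusted p below 0.05, both covariates included, 3 of the 40 called genes named by rule kept their call, Dclre1b, Cebpb and Polr3e, of which Dclre1b changed by less than 1 on the log2 scale.

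**Figure D1:**
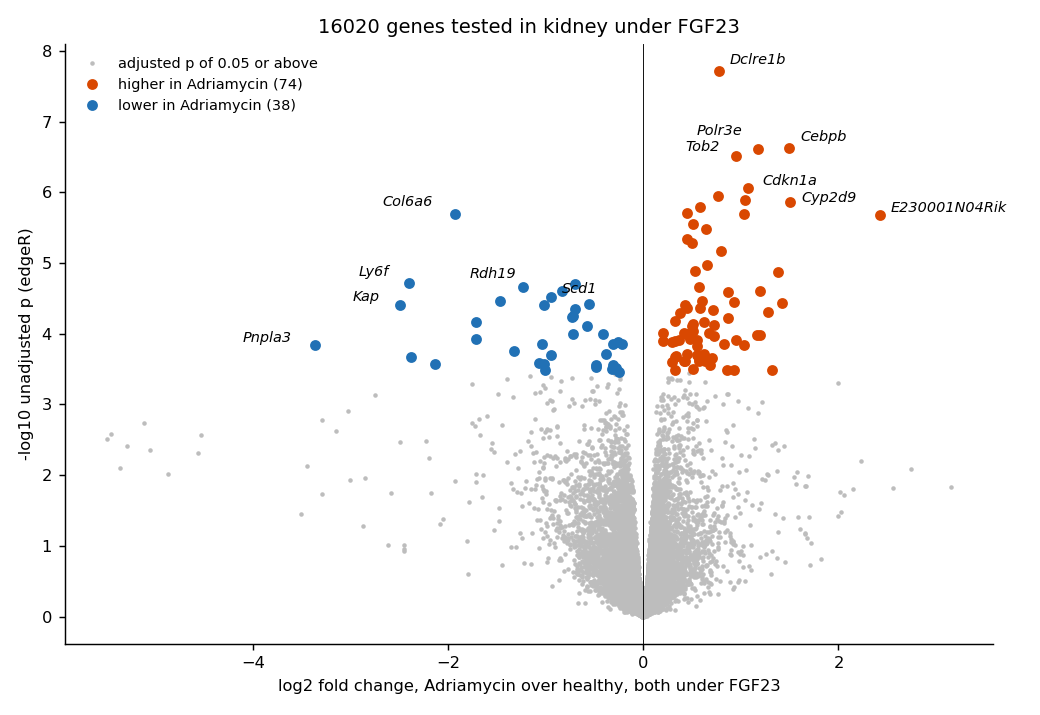
Log2 fold change of Adriamycin over healthy kidneys under FGF23 (x axis) against -log10 of the unadjusted edgeR p (y axis) for the 16020 genes tested, 1 point per gene. The 74 higher genes are orange and the 38 lower genes blue. Genes on the far left without a call include the adipocyte markers.

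Dclre1b, which encodes a nuclease that protects chromosome ends, had the smallest p among the higher genes. It was measured at 17.38, 18.38, 19.47 and 17.1 CPM in Ad13 to Ad16 and at 10.2, 10.38, 10.3 and 11.45 CPM in Ad9 to Ad12. Its groups did not overlap, and the log2 fold change was 0.77 (SE 0.075, edgeR adjusted p = 0.000309). Cebpb, a transcription factor of the acute-phase and inflammatory response at chromosome 2, 167688915 to 167690418 (GRCm38), was at 30.46, 44.2, 39.93 and 27.45 CPM in the Adriamycin mice and at 15.64, 11.49, 9.601 and 13.61 CPM in the healthy mice. The lowest Adriamycin value lay above the highest healthy value, and the log2 fold change was 1.498 (SE 0.175, edgeR adjusted p = 0.00124). Polr3e, a subunit of RNA polymerase III, rose from 59.9 ± 4.30 to 135.3 ± 27.3 CPM (mean ± SD, n = 4), with Ad16 at 96.83 CPM below the other Adriamycin mice. Tob2, an antiproliferative protein, rose from 103.8 ± 10.98 to 199.9 ± 35.5 CPM (SD, n = 4). All 4 of these genes had their lowest Adriamycin value in Ad16.

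The share called higher was 0.462% over all genes tested. Among p53 targets, Cdkn1a, the cell cycle inhibitor, was the single gene called of 35 tested. It was at 14.17, 18.69, 14.42 and 11.83 CPM in the Adriamycin mice and at 7.772, 5.389, 7.497 and 7.584 CPM in the healthy mice, a log2 fold change of 1.07 (SE 0.139, edgeR adjusted p = 0.00258). The groups did not overlap. Mdm2, the ubiquitin ligase that p53 induces to limit itself, was at 48.5 ± 1.02 CPM in Adriamycin and 46.6 ± 3.05 CPM in healthy kidneys (SD, n = 4), a log2 fold change of 0.06 with an adjusted p of 0.69. Of the 35 targets 24 had a positive log2 fold change, beside 47.6% of all genes tested. The list's median was 0.058 (0.091 without Ad12 and 0.092 without Ad15) beside -0.007 over all genes tested. Their summed CPM was 1411 to 1488 in Adriamycin and 1300 to 1336 in healthy kidneys, without overlap. Of the drug transporters, 1 of 16 tested was called: Abcb1b, a P-glycoprotein, rose from 61.3 ± 2.74 to 92.0 ± 8.60 CPM (SD, n = 4; edgeR adjusted p = 0.00258).

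Glucocorticoid-responsive genes had the highest median of the 28 lists, 0.656, and 3 of 13 were called higher, beside 0.462% of all genes. The genes are known to respond to stress hormones and several also to fasting or osmotic stress. Sgk1, a kinase that acts on sodium transport, was at 301.4, 376.6, 451.4 and 166.4 CPM in the Adriamycin mice and at 151.5, 113.4, 162.9 and 149.4 CPM in the healthy mice (log2 fold change 1.17, edgeR adjusted p = 0.0267). Its value in Ad16 was close to the healthy mice although the groups did not overlap. Ddit4, an inhibitor of mTORC1 signalling, was at 28.54, 24.36, 33.46 and 13.63 CPM against 11.01, 8.44, 10.46 and 13.9 CPM, so Ad16 fell inside the healthy range (log2 fold change 1.20, edgeR adjusted p = 0.0146). Per1, a clock gene with a glucocorticoid response, was at 166.0, 169.5, 197.7 and 199.0 CPM against 144.1, 140.3, 119.7 and 131.0 CPM (log2 fold change 0.45, edgeR adjusted p = 0.0179). The remaining 10 did not pass, among them, chosen as Sgk1 was after their values were seen, Tsc22d3 (log2 fold change 0.66, adjusted p = 0.0828) and Fkbp5 (0.71, adjusted p = 0.421). The summed CPM of the list was 2013 to 2756 in Adriamycin and 1485 to 1528 in healthy kidneys. Under vehicle the list's median was 0.065. The call of Ddit4 ended without Ad14 or Ad15, with an adjusted p of up to 0.0542, and that of Per1 without Ad11, Ad15 or Ad16, with an adjusted p of up to 0.0591. The call of Sgk1 ended without Ad9, Ad10, Ad11, Ad14 or Ad15, with an adjusted p of up to 0.108.

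Of 18 NF-kB and cytokine genes tested, Cebpb and Nfkbia were called, both higher, and the list's median was 0.022, which turned to -0.019 without Ad10 and -0.021 without Ad13 and was 0.045, 0.033, 0.064, 0.036 and 0.012 without Ad9, Ad11, Ad14, Ad15 and Ad16. Genes called higher made up 0.462% of all genes tested. Nfkbia encodes the inhibitor that holds NF-kB in the cytoplasm and is itself induced by NF-kB. It was at 59.41, 67.46, 65.78 and 42.69 CPM against 30.04, 30.55, 22.87 and 31.04 CPM, and the groups did not overlap (log2 fold change 1.04, SE 0.139, edgeR adjusted p = 0.00258). Of 18 circadian genes Ciart and Per1 were called, and the list's median was 0.056, with 0.03 without Ad9, 0.12 without Ad10, 0.015 without Ad11 and 0.095 without Ad12. Ciart, a repressor of the clock, was at 28.95, 34.44, 31.27 and 39.09 CPM against 17.78, 20.68, 19.69 and 20.3 CPM (log2 fold change 0.77, edgeR adjusted p = 0.00258). Nr1d1, Dbp and Per2, clock genes with strong daily rhythms named after their values were seen, had log2 fold changes of -0.11, 0.14 and -0.04 and did not pass.

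The promoters of Per1, Ciart and Nfkbia are shown because these called genes hold, before the first start that RefSeq lists for them, letters known for binding clock or NF-kB proteins. Capitals mark CACGTG (the E-box) in Per1 and Ciart and the NF-kB site, on the reverse strand, in Nfkbia. The stretches are the 250 bases before the start on GRCm38.p6, written on the strand of the gene: chr11:69098699-69098948 (+) for Per1, chr3:95882229-95882478 (-) for Ciart and chr12:55492648-55492897 (-) for Nfkbia.
Per1: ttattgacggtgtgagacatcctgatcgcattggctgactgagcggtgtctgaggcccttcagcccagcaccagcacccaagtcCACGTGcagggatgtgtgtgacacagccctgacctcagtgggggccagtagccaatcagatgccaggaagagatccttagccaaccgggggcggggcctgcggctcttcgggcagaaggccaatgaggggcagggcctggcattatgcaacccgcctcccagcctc
Ciart: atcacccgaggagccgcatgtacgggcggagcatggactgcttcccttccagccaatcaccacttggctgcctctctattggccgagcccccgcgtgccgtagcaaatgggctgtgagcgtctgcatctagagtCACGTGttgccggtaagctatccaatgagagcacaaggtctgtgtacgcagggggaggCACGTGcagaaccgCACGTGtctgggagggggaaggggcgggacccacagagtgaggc
Nfkbia: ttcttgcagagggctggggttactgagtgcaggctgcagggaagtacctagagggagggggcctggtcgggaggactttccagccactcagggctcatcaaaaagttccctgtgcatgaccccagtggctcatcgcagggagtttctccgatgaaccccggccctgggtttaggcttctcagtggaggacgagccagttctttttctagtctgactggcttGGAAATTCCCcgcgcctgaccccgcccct
Both strands were searched in the promoters RefSeq gives for 11627 of the tested genes. CACGTG stood in 956 of them (8.22%), in 5 of the 60 higher genes with a promoter (8.33%) and in 1 of the 22 lower ones (4.55%). The NF-kB site stood in 115 of all promoters (0.99%), in 2 of 60 (3.33%) and in 0 of 22. The match lay 166 bases before the start in Per1, at 116, 58 and 44 bases in Ciart, and at 29 bases in Nfkbia. The E-box share of the higher genes was near that of all promoters.

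**Figure D2:**
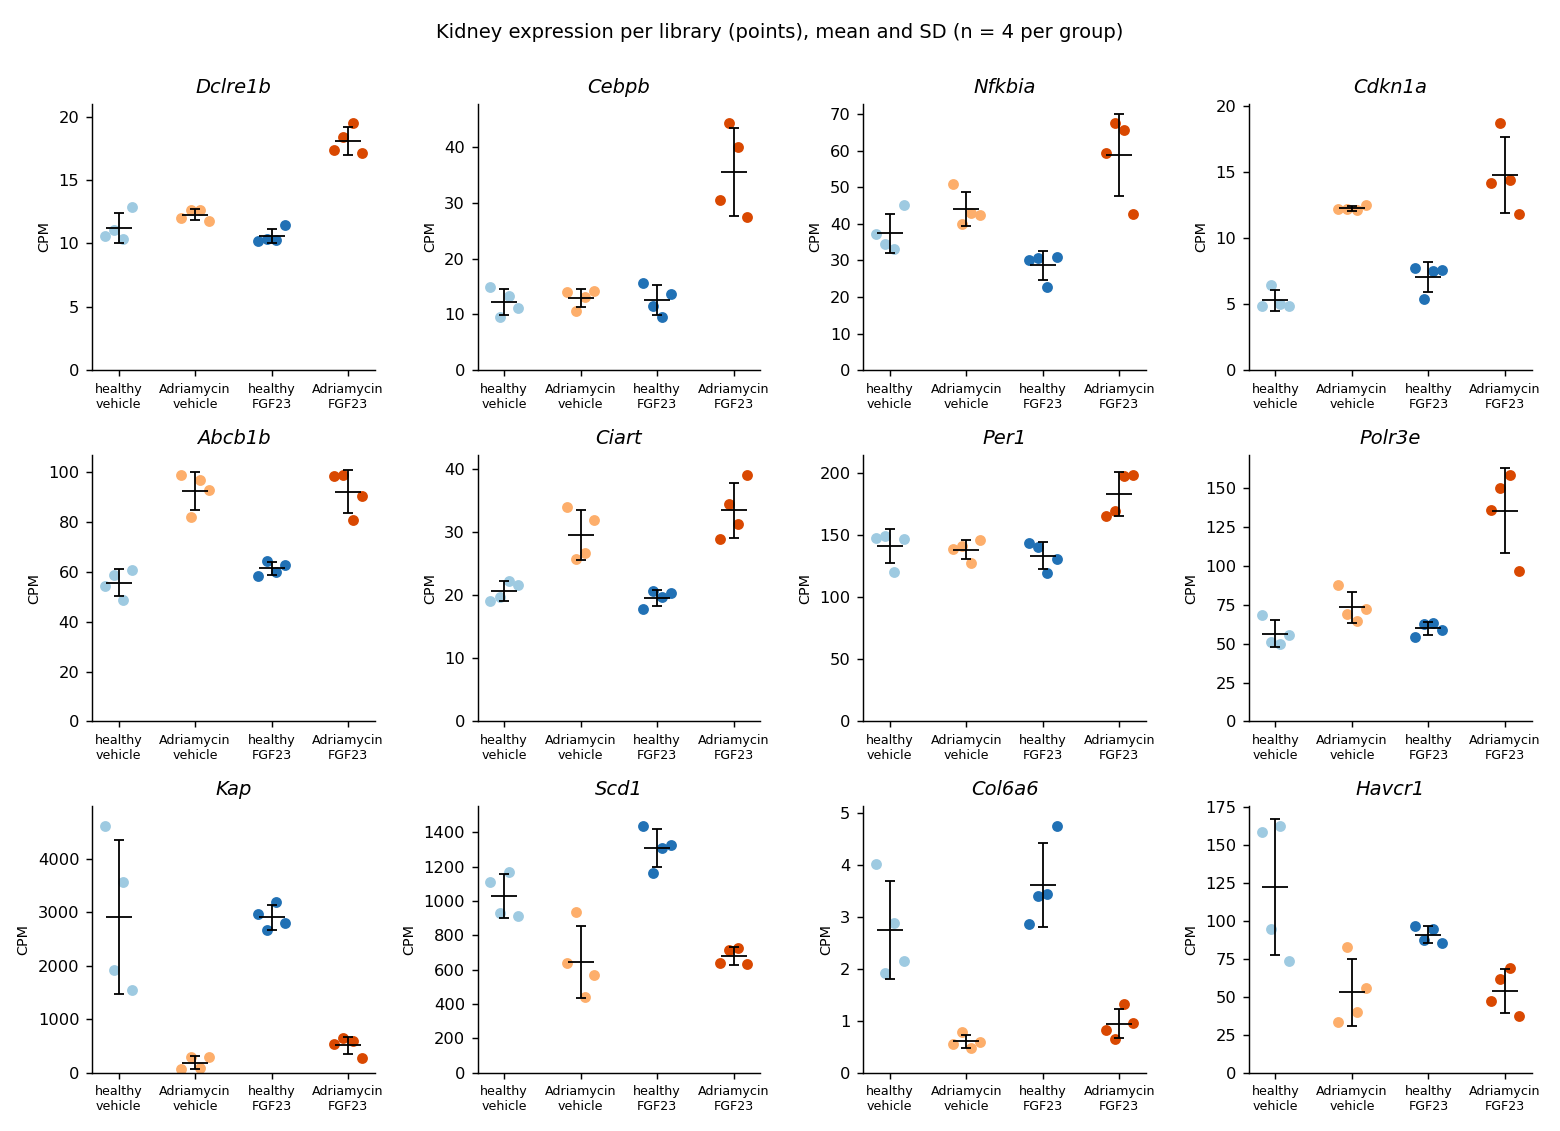
CPM of 12 genes in each library of the experiment (points) with mean and SD (n = 4 per group), axes from 0. Mean CPM of Dclre1b, Cebpb, Polr3e and Cdkn1a was highest in Adriamycin kidneys under FGF23. Cdkn1a, Abcb1b, Kap and Col6a6 were also called between Adriamycin and healthy mice under vehicle. Polr3e was higher there without a call (log2 fold change 0.378, edgeR adjusted p = 0.417). The edgeR test of FGF23 against vehicle in the disease difference called 0 genes.

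Further genes named by rule had other roles. Cyp2d9, a cytochrome P450, was at 22.73, 23.66, 28.08 and 23.34 CPM against 4.625, 8.718, 9.439 and 11.64 CPM (log2 fold change 1.51, edgeR adjusted p = 0.00258). Genes of its family are close in sequence, so reads may be split between them. Slc19a1, the reduced folate carrier, rose from 101.3 ± 3.23 to 138.3 ± 8.25 CPM (SD, n = 4). Herpud1, a protein of the unfolded protein response, rose from 428.4 ± 19.1 to 669.5 ± 73.9 CPM and was the single call among 20 stress response genes. Of 18 targets of Nrf2, the regulator of antioxidant genes, Osgin1 was the single call, lower at 49.8 ± 7.68 CPM against 80.5 ± 11.3 CPM (SD, n = 4), and the call ended without Ad10, Ad11, Ad14 or Ad15 (adjusted p of up to 0.0886). Arrdc2, an arrestin-domain protein, rose from 7.51 ± 1.23 to 15.3 ± 2.73 CPM. The noncoding RNA E230001N04Rik had the largest increase among the called genes named by rule, a log2 fold change of 2.43, with values of 3.165, 3.474, 3.379 and 1.286 CPM against 0.396 to 0.612 CPM. The apolipoprotein genes Apoc3, Apoc1 and Apoe, picked out after their values were seen, had log2 fold changes of 0.93, 1.20 and 0.57 with edgeR adjusted p-values of 0.0171, 0.0267 and 0.0416. Their calls ended without Ad10 or Ad14, that of Apoc1 also without Ad11, Ad12, Ad15 or Ad16 and that of Apoe without any one library other than Ad13, with adjusted p-values of up to 0.136.

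Kap, an androgen-regulated protein of the proximal tubule, fell in all 4 Adriamycin mice. It was at 546.0, 642.7, 586.8 and 283.2 CPM in the Adriamycin mice and at 2966, 2663, 3201 and 2802 CPM in the healthy mice. No Adriamycin value came near the healthy range, and the log2 fold change was -2.50 (SE 0.445, edgeR adjusted p = 0.0171). The call ended without Ad14, Ad15 or Ad16, with an adjusted p of up to 0.0633. Kap was the single call among 30 proximal tubule markers, beside 0.237% of all genes called lower. Slc34a1, the phosphate transporter that FGF23 removes from the tubule membrane, was at 4862 ± 428 CPM in Adriamycin and 4558 ± 509 CPM in healthy kidneys (SD, n = 4; edgeR adjusted p = 0.775).

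Col6a6, a collagen chain, had the smallest p among the lower genes, with 0.830, 0.660, 1.333 and 0.964 CPM against 2.861, 3.408, 3.452 and 4.758 CPM (log2 fold change -1.93, edgeR adjusted p = 0.00258). It was the single lower gene at an adjusted p below 0.01. Ly6f, of the Ly6 family, fell from 5.89 ± 1.45 to 1.09 ± 0.311 CPM (SD, n = 4). Rdh19, of the retinol dehydrogenases, fell from 26.98 ± 5.74 to 11.5 ± 2.92 CPM. Serpina6, the corticosteroid-binding globulin, was at 2.231, 1.495, 0.9995 and 0.643 CPM against 6.294, 4.359, 6.527 and 6.831 CPM (log2 fold change -2.13, edgeR adjusted p = 0.0436). Bcl6b, a repressor found in endothelium, fell from 11.7 ± 1.86 to 6.56 ± 0.666 CPM. The calls of Ly6f, Rdh19 and Bcl6b ended without Ad14, and that of Ly6f also without Ad15, with adjusted p-values of up to 0.0526, 0.0691 and 0.0699. That of Serpina6 ended without any one library other than Ad13, with an adjusted p of up to 0.142.

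Scd1, which makes monounsaturated fatty acids, was at 640.8, 715.8, 728.6 and 633.0 CPM against 1437, 1164, 1306 and 1328 CPM (log2 fold change -0.95, SE 0.164, edgeR adjusted p = 0.0166). Its value in Ad12, where adipocyte markers were lowest, was within the range of the other healthy mice. The adjusted p of Scd1 was 0.057 without Ad14 and 0.0617 with the adipocyte covariate (0.105 with Fabp4 in it). Acaca, which makes malonyl-CoA and was picked out after its values were seen, had a log2 fold change of -0.73 (edgeR adjusted p = 0.0205, up to 0.0941 without Ad10, Ad11, Ad14, Ad15 or Ad16). Pnpla3, a lipid droplet protein of fat and liver, moved with the adipocyte markers, at 1.859 and 3.368 CPM in Ad9 and Ad10, 0.809 and 0.377 CPM in Ad11 and Ad12, and 0.0880 to 0.257 CPM in the Adriamycin mice. Its log2 fold change was -3.36 (adjusted p = 0.0297) and without Ad9 and Ad10 -1.88 (adjusted p = 0.187), and leaving out Ad9, Ad10, Ad13, Ad14, Ad15 or Ad16 alone also ended its call, with an adjusted p of up to 0.136. The part of fat cell RNA in these results was not tested beyond these fits.

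Over the 28 lists, 541 of 593 members were tested and 12 were called, 10 higher and 2 lower. Over all 16020 genes tested, 74 were called higher (0.462%) and 38 lower (0.237%). The lists were chosen with earlier results of these data known. No gene was called in 19 lists. Among podocyte markers Cdkn1c, a cell cycle inhibitor also expressed in other cells, was the single call of 30 tested, rising from 43.8 ± 3.93 to 59.9 ± 7.96 CPM (SD, n = 4; edgeR adjusted p = 0.0376, up to 0.131 without Ad9, Ad10, Ad11, Ad12, Ad13 or Ad14). Nphs1, of the slit diaphragm, had a log2 fold change of -0.03 and did not pass (adjusted p = 0.943), and summed podocyte CPM was 2617 to 2738 in Adriamycin and 2641 to 2981 in healthy kidneys. No gene of tubular injury was called of 22 tested (1 lower and 2 higher at an unadjusted p below 0.05, beside 1103 lower and 927 higher of all 16020 genes). Havcr1, the injury marker KIM-1, was at 46.96, 61.97, 69.21 and 37.61 CPM against 96.36, 87.21, 94.82 and 85.31 CPM, lower in all 4 Adriamycin mice but not past the threshold (log2 fold change -0.75, edgeR adjusted p = 0.27). Lcn2, another injury marker, was at 1.82 ± 0.651 CPM against 1.42 ± 0.594 CPM (SD, n = 4; adjusted p = 0.813).

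No gene of the FGF23 axis was called of 22 tested (2 higher and 1 lower at an unadjusted p below 0.05, beside 927 higher and 1103 lower of all 16020 genes). Kl, which encodes Klotho, was at 750.5 ± 92.7 CPM in Adriamycin and 738.9 ± 104.2 CPM in healthy kidneys (SD, n = 4; edgeR adjusted p = 0.964). Cyp24a1, which degrades active vitamin D, was at 18.11, 35.71, 15.14 and 25.27 CPM against 25.6, 179.2, 29.99 and 59.45 CPM, and the high value of Ad10 set most of the healthy mean (adjusted p = 0.295). Cyp27b1, which makes active vitamin D, was at 3.269, 6.113, 6.14 and 6.494 CPM against 9.536, 5.112, 14.08 and 2.732 CPM (adjusted p = 0.609). Under vehicle Cyp27b1 was at 5.001 ± 0.943 CPM in Adriamycin and 16.7 ± 3.32 CPM in healthy mice (SD, n = 4), a log2 fold change of -1.73 with an edgeR adjusted p of 0.049.

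The type I interferon, macrophage and matrix lists held no call by edgeR, with 3, 6 and 3 of their genes lower and 0, 0 and 1 higher at an unadjusted p below 0.05. Over all 16020 genes tested, 1103 were lower and 927 higher at such a p, and 47.6% had a positive log2 fold change. All 30 type I interferon genes had a negative log2 fold change, with a median of -0.253, a range of summed CPM of 289.0 to 378.1 in Adriamycin and 343.4 to 448.8 in healthy kidneys, and a median of 0.174 under vehicle. Without Ad12 the median under FGF23 was -0.128. Of 20 macrophage markers 19 were negative, with a median of -0.283 and summed CPM of 177.9 to 204.1 against 212.0 to 281.2. The macrophage median was -0.119 without Ad9, -0.125 without Ad9 and Ad10, and -0.117 with the adipocyte covariate (-0.057 with Fabp4 in it). Ptprc, the leukocyte antigen CD45, was at 9.01 ± 1.66 CPM against 10.8 ± 1.36 CPM and Adgre1, the macrophage antigen, at 4.07 ± 0.667 CPM against 4.57 ± 0.544 CPM (SD, n = 4; edgeR adjusted p = 0.413 and 0.663). Of 26 matrix and fibrosis genes 22 were negative, with a median of -0.366, and the summed CPM of 1467 in Ad9 was the highest of the 8 libraries. The median was -0.147 without Ad9, -0.176 without Ad13, -0.573 without Ad12, -0.557 without Ad16, -0.038 without Ad9 and Ad10, -0.028 with the adipocyte covariate and 0.019 with Fabp4 in it. Of 27 fatty acid oxidation genes 23 were positive, with a median of 0.151, which was 0.081 without Ad11 and 0.257 without Ad9 and Ad10.

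**Figure D3:**
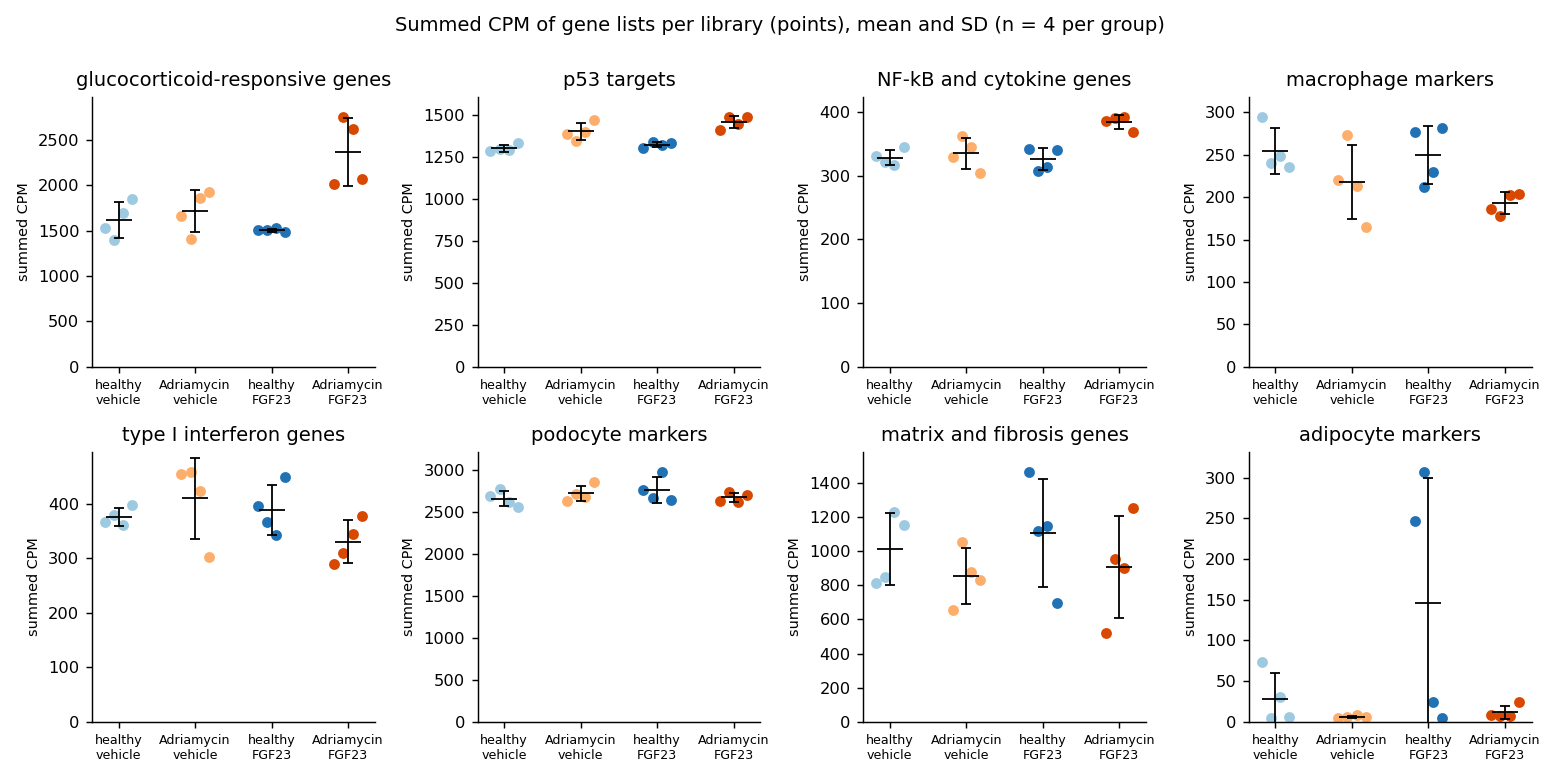
Summed CPM of 8 gene lists in each library (points) with mean and SD (n = 4 per group), axes from 0. The glucocorticoid-responsive, p53 and NF-kB sums of the 4 Adriamycin libraries under FGF23 lay above those of the 4 healthy libraries under FGF23, the macrophage sums below, and the adipocyte sums were high in Ad9 and Ad10. The median log2 fold change of the NF-kB list was 0.022. Its 2 called genes, Cebpb and Nfkbia, had mean CPM of 35.51 and 58.84 in Adriamycin and 12.59 and 28.63 in healthy kidneys under FGF23.

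**Figure D4:**
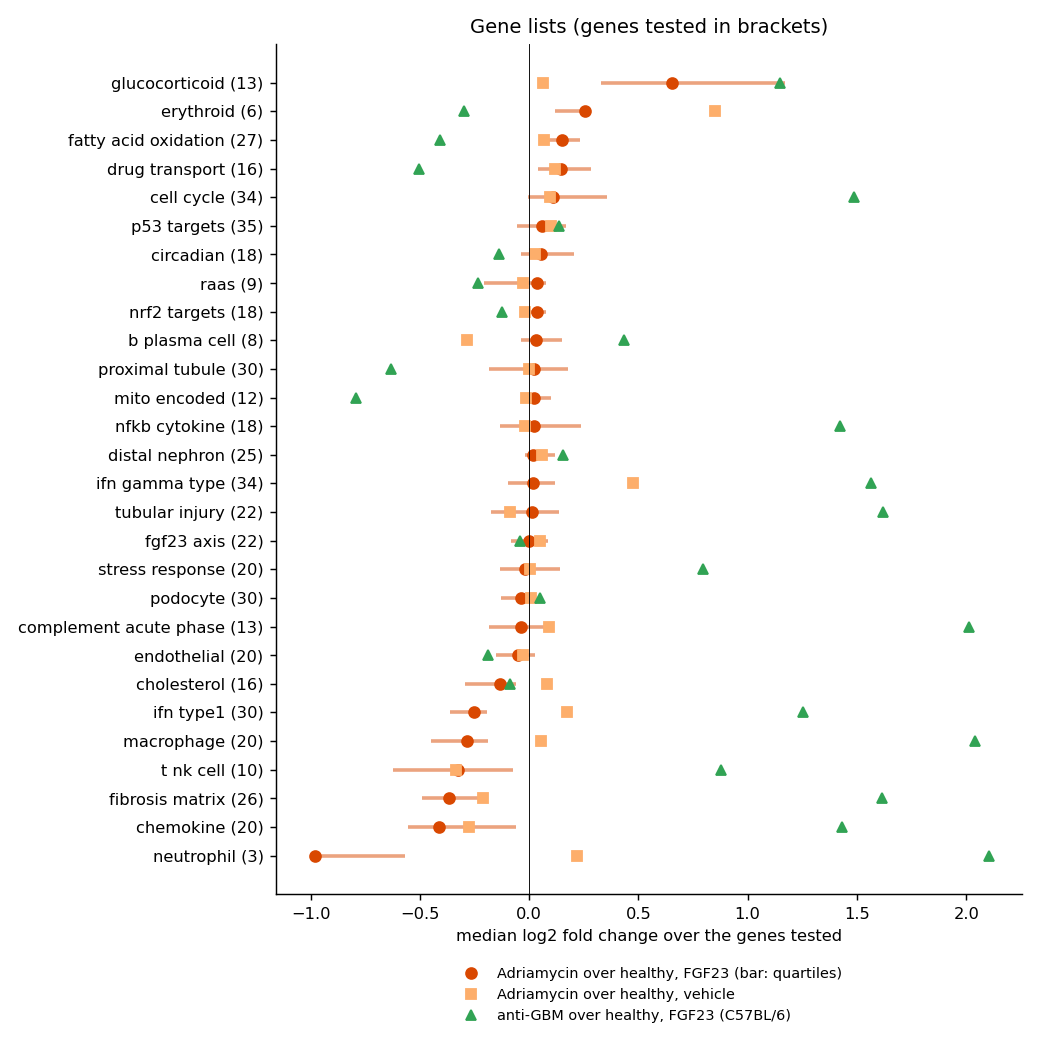
Median log2 fold change of the genes tested in each of the 28 lists, for Adriamycin over healthy under FGF23 (circles, with quartiles as bars), Adriamycin over healthy under vehicle (squares) and anti-GBM over healthy under FGF23 (triangles). The glucocorticoid list had the highest median under FGF23 in Adriamycin, 0.656, and its median in anti-GBM disease was higher, 1.148. The inflammatory lists were far higher in anti-GBM disease.

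Whether the same genes differed without FGF23 was read from the 8 vehicle mice, which share no library with the comparison. There 19 genes were higher (0.119%) and 34 lower (0.212%) in Adriamycin kidneys, and 22 genes were called in both comparisons, all in the same direction, 10 higher and 12 lower. They made up 19.6% of the calls under FGF23 and 41.5% of those under vehicle. Of the 74 genes higher under FGF23, 61 had a positive log2 fold change under vehicle and 39 had an unadjusted p below 0.05 in that direction. Of the 38 lower genes 36 were negative under vehicle and 21 had such a p. The median log2 fold change of the higher genes was 0.61 under FGF23 and 0.23 under vehicle, and that of the lower genes -0.78 and -0.41. Over all 16020 genes tested 48.6% were positive under vehicle. Of these 16020 genes, 1325 had an unadjusted edgeR p below 0.05 under vehicle, both directions counted together.

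Several genes were called in the same direction in both sets of mice. Cdkn1a was at 12.21, 12.17, 12.14 and 12.52 CPM in Adriamycin vehicle mice and at 4.87, 6.443, 4.998 and 4.826 CPM in healthy vehicle mice (log2 fold change 1.21, edgeR adjusted p = 0.00165). Cyp2d9 had a log2 fold change of 1.48 under vehicle, Abcb1b of 0.73, Kap of -3.98, Col6a6 of -2.19, Ly6f of -2.91 and Rdh19 of -1.50, each past the threshold. Others differed under FGF23 and had a smaller value under vehicle. Cebpb was at 13.94, 10.65, 13.12 and 14.19 CPM in Adriamycin vehicle mice and at 14.98, 9.53, 13.23 and 11.18 CPM in healthy vehicle mice (log2 fold change 0.08, adjusted p = 0.959). Dclre1b had a log2 fold change of 0.13 under vehicle (adjusted p = 0.707), Arrdc2 of -0.01 (adjusted p = 0.991) and Il22ra1, a receptor for interleukin 22, of 0.29 against -1.02 under FGF23.

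The difference between the 2 differences was tested directly, and 0 of 16020 genes passed (0%) by edgeR, with 819 genes at an unadjusted p below 0.05 and a smallest adjusted p of 0.268. The 5 genes with the smallest p were Dclre1b (0.65 on the log2 scale), Cebpb (1.42), Il22ra1 (-1.31), Arrdc2 (1.04) and Plk3 (1.29). DESeq2 called 4 genes for this difference, Cebpb, Dclre1b, Plk3 and Arrdc2, edgeR without a filter on low counts 1, Cebpb, and edgeR without Ad16 1, Cry1. Plk3, a stress-activated kinase, was at 30.41, 42.62, 48.74 and 46.68 CPM in Adriamycin mice under FGF23 and at 24.08 to 27.1 CPM in healthy mice under FGF23, and did not pass in the main comparison (edgeR adjusted p = 0.0783).

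**Figure D5:**
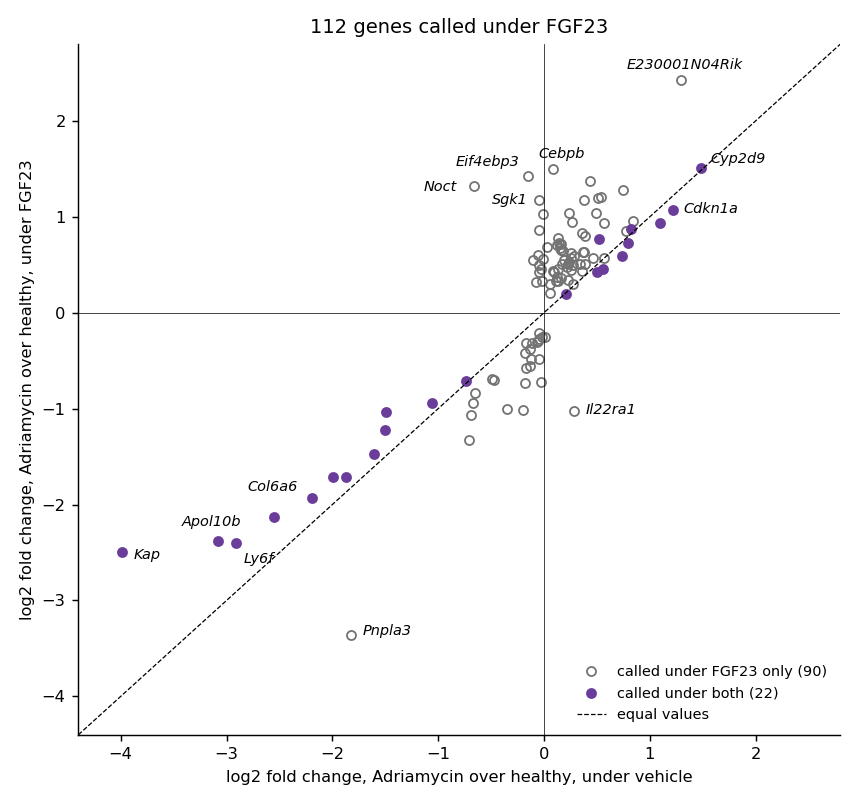
Log2 fold change of Adriamycin over healthy under vehicle (x axis) against that under FGF23 (y axis) for the 112 genes called under FGF23, 1 point per gene, with the line of equal values. The 22 genes called in both comparisons are filled and have the same sign in both, and Cebpb, Noct, Sgk1 and Eif4ebp3 lie near or left of 0 under vehicle.

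Male C57BL/6 mice with anti-glomerular basement membrane (anti-GBM) disease, given 6 daily injections of FGF23, were compared in 1 fit of 30 kidney libraries. The anti-GBM difference under FGF23 rests on 3 diseased and 3 healthy libraries. The diseased column 14_NTS4 carries the same mouse number as the healthy vehicle column 4_NTS4. The anti-GBM mice had been immunized with sheep IgG in Freund's complete adjuvant. Strain, sex, disease and number of injections differ together between the experiments and cannot be told apart. The Adriamycin difference departed from the anti-GBM difference for 4242 of 16954 genes (25%), and the anti-GBM comparison itself called 5795 (34.2%). The median absolute log2 fold change was 0.092 in Adriamycin and 0.263 in anti-GBM disease. Of the 74 genes higher in Adriamycin, 27 were called higher in anti-GBM disease and 11 lower, and the difference was called for 32. Of the 38 lower genes 5 were called lower and 10 higher, and the difference was called for 17. Of 16019 genes tested in both fits, 2692 were called higher and 2852 lower in anti-GBM disease. The 74 and 38 genes are calls of the main fit, without the anti-GBM libraries. In the fit of 30 libraries 29 genes were called in Adriamycin under FGF23.

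The tubular injury genes Havcr1 and Lcn2 and the leukocyte and macrophage markers Ptprc and Adgre1 were far apart between the diseases. The log2 fold change in Adriamycin minus that in anti-GBM was -6.83 for Havcr1, -5.02 for Lcn2, -2.13 for Adgre1 and -1.65 for Ptprc, each with an edgeR adjusted p below the threshold. Cyp4a12a, a fatty acid hydroxylase higher in males, was at 71.14, 66.59, 48.69 and 58.83 CPM against 25.17, 42.28, 29.83 and 30.86 CPM in the BALB/c mice and differed from anti-GBM by 3.04. Its call in the Adriamycin comparison (edgeR adjusted p = 0.0476) ended without any one library other than Ad10, with an adjusted p of up to 0.16. Upp2, a uridine phosphorylase, and Pank1, which starts coenzyme A synthesis, rose in Adriamycin by 0.87 and 0.37 on the log2 scale and were lower in anti-GBM disease by -1.19 and -0.96. Ier5, an immediate early gene, and Col12a1, a fibril-associated collagen, were lower in Adriamycin by -0.56 and -0.57 and higher in anti-GBM disease by 1.32 and 1.39. Each of these 4 calls in Adriamycin ended without Ad9, Ad14 or Ad15, and further without Ad11 (Ier5, Col12a1 and Pank1), Ad10 (Upp2 and Pank1), Ad13 (Col12a1) or Ad16 (Upp2), with adjusted p-values of up to 0.109. Cyp4a12a, Upp2, Pank1, Ier5 and Col12a1 were named for their small p in this difference between the diseases. Cebpb and Nfkbia did not differ past the threshold, with log2 fold changes of 1.40 and 1.20 in anti-GBM disease. The glucocorticoid list had a median of 1.148 in anti-GBM disease under FGF23, against 0.656 in Adriamycin. Of its 13 genes 8 were called higher in anti-GBM disease, beside 2692 of 16019 genes.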

How the data were processed

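Kidney RNA was sequenced by stranded mRNA-Seq in 16 mice of the Adriamycin experiment, 4 per group. The authors aligned reads with STAR 2.7.9a to GRCm38, counted them on Ensembl genes with featureCounts 1.5.1, and deposited raw read counts of 55487 genes, without normalization. Columns of the count table carry mouse numbers, which were matched to groups through the column headings of the study's own table and not to single labelled samples. Pairs of replicates differed by at least 6.45 times the variance of counting (chi-square divided by its degrees of freedom), so each was counted as its own library.

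Genes were kept by filterByExpr (minimum count 10), scaled by TMM (factors 0.964 to 1.03) and fitted with edgeR 4.0.16 in 1 quasi-likelihood model of the 4 groups (R 4.3.3, common dispersion 0.0132). CPM are scaled by TMM. Calls needed a Benjamini-Hochberg adjusted p below 0.05 over all genes tested. The difference from anti-GBM disease was fitted over 30 libraries. The alternative tool was DESeq2 1.42.0. The fit was tested on simulated data. Symbols matched 55141 genes. Single results named by the rule below that are not reported here were left out of the text. Promoters came from RefSeq.

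Named genes were, by rule, the 10 with the smallest p in each direction, the 5 largest log2 fold changes in each direction without overlap at a mean of at least 1 CPM, the 2 smallest p per list and direction, a set of anchor genes, the 5 smallest p of the interaction, and the 5 smallest p in each direction of the difference from anti-GBM disease among called genes. Members, lists and rules were chosen with earlier results of these data known. Leaving out each library, leaving out Ad9 and Ad10 together, the adipocyte covariate with and without Fabp4, other scalings, filters and thresholds were tried. Leaving out Ad9 and Ad10 together and both versions of the covariate were added after the data were seen.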

Additional observations from a re-analysis of the deposited data

Results flagged for a closer look

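In 8 groups of 4 libraries, 1 library lay apart from the other 3 by more than Dixon's 95% critical value (gap divided by range). Chance gives about 1 in 20 groups. The 53 named genes and the cell type marker sums were examined in both groups under FGF23, so several such flags are expected by chance. Whether 8 exceeds that number was not tested. Among healthy mice under FGF23 the ratio was 0.857 for Dclre1b (Ad12 high), 0.885 for Cdkn1a (Ad10 low), 0.877 for Nfkbia (Ad11 low) and 0.878 for Il22ra1 (Ad10 high). Among Adriamycin mice under FGF23 it was 0.902 for Slc19a1 (Ad13 low), 0.859 for E230001N04Rik (Ad16 low), 0.855 for Apol10b (Ad16 low) and 0.882 for Cyp27b1 (Ad13 low).

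The log2 fold change in Adriamycin minus that in anti-GBM disease, both under FGF23, passed the test of the difference for 26 of 53 named genes (edgeR, adjusted p below 0.05). Over all genes of that fit 4242 of 16954 (25%) passed. Cyp2d9, Upp2, Sardh, Pank1, Cyp4a12a, Ier5, Col12a1, Trim35, Gm20518 and Csmd1 were named for their small p in this same difference. Their passing was therefore set by the choice of genes. It was positive for Dclre1b (0.532), Cyp2d9 (2.569), Slc19a1 (0.557), E230001N04Rik (1.456), Upp2 (2.063), Sardh (0.971), Pank1 (1.323), Cyp4a12a (3.041) and Slc34a1 (0.730). It was negative for Cdkn1a (-1.102), Cdkn1c (-0.500) and Plk3 (-1.878), which encode regulators of the cell cycle and stress, and for Mki67 (-2.094), a marker of proliferation. It was negative for Havcr1 (-6.831) and Lcn2 (-5.024), markers of tubular injury, and for Ptprc (-1.647) and Adgre1 (-2.130), markers of leukocytes and macrophages. It was also negative for Ly6f (-2.358), Ier5 (-1.872), Col12a1 (-1.962), Trim35 (-0.878), Apol10b (-2.492), Gm20518 (-1.860), Serpina6 (-6.651), Csmd1 (-2.778) and Cyp27b1 (-1.710). The value for Serpina6 had an SE of 2.283. Its log2 fold change of 4.517 in anti-GBM disease was not called (SE 2.364, edgeR adjusted p = 0.148). Strain, sex, disease and number of injections cannot be told apart in this difference.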

How the results depend on the processing

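The main counts were 74 higher and 38 lower genes. DESeq2 gave 151 and 112, no filter on low counts 94 and 61, only the 8 libraries compared 29 and 14, a log2 fold change above 1 gave 15 and 16, and an adjusted p below 0.01 gave 18 and 1. Leaving out 1 library gave 19 to 73 higher and 2 to 57 lower genes. Leaving out Ad9 and Ad10 together gave 57 higher and 51 lower. The adipocyte covariate gave 27 and 13, with 31 genes called for the covariate itself. Its earlier version, with Fabp4, gave 4 and 1, with 26 genes called for the covariate. That version was run first, and Fabp4 was removed after its result was seen because capillary endothelium also expresses it. These adipocyte settings were chosen after seeing the data. Size factors by RLE, a minimum of 10 counts in every library and a robust fit kept both counts within 1.5 times. Of the 40 called genes named by rule, 14 kept their call in every planned refit that tested them, at an adjusted p below 0.05, and 3 in every refit including those added. E230001N04Rik, among the 14, was not tested with a minimum of 10 counts in every library. A log2 fold change above 1 was not met by 6 of the 14, Abcb1b, Ciart, Dclre1b, Herpud1, Slc19a1 and Tob2.

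The interaction gave 0 genes, 4 by DESeq2, 1 without a filter, and 0 to 1 on leaving out a library. The 4242 genes that differed from anti-GBM disease became 3701 to 3976 on leaving out a library, 4418 by DESeq2, 4222 by RLE and 3276 without a filter. Signs turned for uncalled genes alone. On leaving out 1 library Nphs1 ranged from -0.086 to 0.035, Mki67 from -0.069 to 0.225 and Kl from -0.054 to 0.107. Nphs1 turned to 0.035 without Ad10, 0.015 without Ad13, 0.085 without Ad9 and Ad10, 0.061 with the adipocyte covariate and 0.036 with Fabp4 in it. Mki67 turned to -0.026 without Ad12 and -0.069 without Ad15, and Kl to -0.008, -0.054, -0.006 and -0.026 without Ad10, Ad12, Ad14 and Ad16. The cause was not tested. No paired analysis was possible because the columns carry mouse numbers and not the replicate numbers of the labels. The groups also held different mice, and the paper describes no pairs between them. Depth and 4 mice per group limit what could be called among genes near 1 CPM.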

Other observations

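In the Adriamycin library Ad13 a few genes stood far above the other 7 libraries of the comparison, picked out after their values were seen. Loxl4, a lysyl oxidase, was at 39.02 CPM in Ad13 and at 0.809 to 2.765 CPM elsewhere. Lamb3, a laminin chain of epithelial basement membranes, was at 30.82 CPM and Npy1r, a neuropeptide Y receptor, at 29.16 CPM, against values up to 2.12 and 2.683 CPM in the others. Gucy2g, a guanylate cyclase, was at 5.085 CPM against at most 0.476 CPM. None of these 4 genes passed the test of the comparison (edgeR adjusted p = 0.22, 0.268, 0.198 and 0.267), and urothelial markers summed to 7.576 CPM in Ad13.

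Of 16 cholesterol genes 13 had a negative log2 fold change under FGF23, with a median of -0.135. Over all 16020 genes 8389 were negative. Of the cholesterol genes 0 were called (2 lower at an unadjusted p below 0.05, beside 1103 of all genes), and under vehicle their median was 0.08. The median under FGF23 turned to 0.027 without Ad11 and was -0.308 without Ad9 and Ad10.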
